A study of Mus musculus with 8 samples.

Results

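Transcripts of blood cells and of endothelium were followed in 8 RNA-seq libraries of sorted stromal cells from mouse small intestine. The 32 genes were the rows of the deposited table, out of 53801, whose gene name was on a list of haematopoietic, plasma cell, blood endothelial and lymphatic endothelial genes that a sort against CD45 and CD31 should deplete. The list held 1 pan-leukocyte gene, 5 genes of T and innate lymphoid cells, 3 of B cells, 4 of plasma cells and immunoglobulins, 4 of myeloid cells, 11 of blood endothelium and 4 of lymphatic endothelium. Of the 32, 23 passed the filter on low counts and were tested, 9 did not, and 1 of these, Igkc, had no read in any library.

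The compared groups were 4 libraries of YFP+ cells and 4 libraries of YFP- cells. Both came from the small intestine of LTβRYFP mice, a line named after the lymphotoxin beta receptor, and both had been gated as negative for CD45 and CD31. The labels do not give the promoter or allele that drives YFP, the age or sex of the mice, or whether each library came from its own animal. The p-values therefore describe the spread among the libraries at hand, part of which may be technical. The sample titles give the opposite YFP sign to the descriptions and genotypes in all 8 samples. Groups were taken from the description and the genotype, which match the names of the count columns, and were the titles correct instead, each direction given here would be reversed.

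CD45 is the protein of Ptprc and is carried by nearly all haematopoietic cells other than mature red cells, while CD31 is the protein of Pecam1 and sits at the junctions between endothelial cells. A sort removes cells by surface protein, whereas sequencing reads RNA, and plasma cells carry little CD45 on their surface while holding large amounts of immunoglobulin RNA. The lamina propria of the small intestine is rich in plasma cells that make IgA, an antibody built from a heavy chain (Igha), a light chain and, in its dimer, the joining chain (Jchain). In bulk RNA of this kind, fewer cells of a type and less RNA per cell cannot be told apart.

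Library totals ran from 23404630 to 29829232 counts in the YFP+ libraries and from 23272858 to 28688906 counts in the YFP- libraries, so that the 3 counts taken here as the upper limit for a gene with no read correspond to 0.0982 to 0.132 CPM (read counts scaled by the TMM library sizes). Stromal genes were abundant in all libraries, and the sum of 8 markers was lower in each YFP+ library than in each YFP- library. The summed level of 8 stromal markers (Pdgfra, Pdgfrb, Col1a1, Col1a2, Col3a1, Dcn, Lum and Vim) was 35162 to 38887 CPM in YFP+ libraries and 40189 to 47414 CPM in YFP- libraries.

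All 32 genes together reached 388, 106, 194 and 263 CPM in YFP+ replicates 1 to 4, against 384, 163, 363 and 301 CPM in YFP- replicates 1 to 4. The 4 plasma cell and immunoglobulin genes gave 308, 34.9, 116 and 184 CPM of this in YFP+ replicates 1 to 4, and 263, 67.1, 268 and 163 CPM in YFP- replicates 1 to 4, which was most of the sum except in the libraries numbered 2. The other 28 summed to 79.6, 71.4, 77.3 and 79.4 CPM in YFP+ libraries, against 120, 95.6, 95.9 and 138 CPM in YFP- libraries. These sums did not overlap. With Tek and Il7r left out as well, a choice made after their values were seen, the remaining 26 genes summed to 40.2 to 55.8 CPM in YFP+ libraries and 42.5 to 73.5 CPM in YFP- libraries. The groups then overlapped, while the YFP+ sum was still the lower in all 4 same-numbered pairs.

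**Figure D1:**
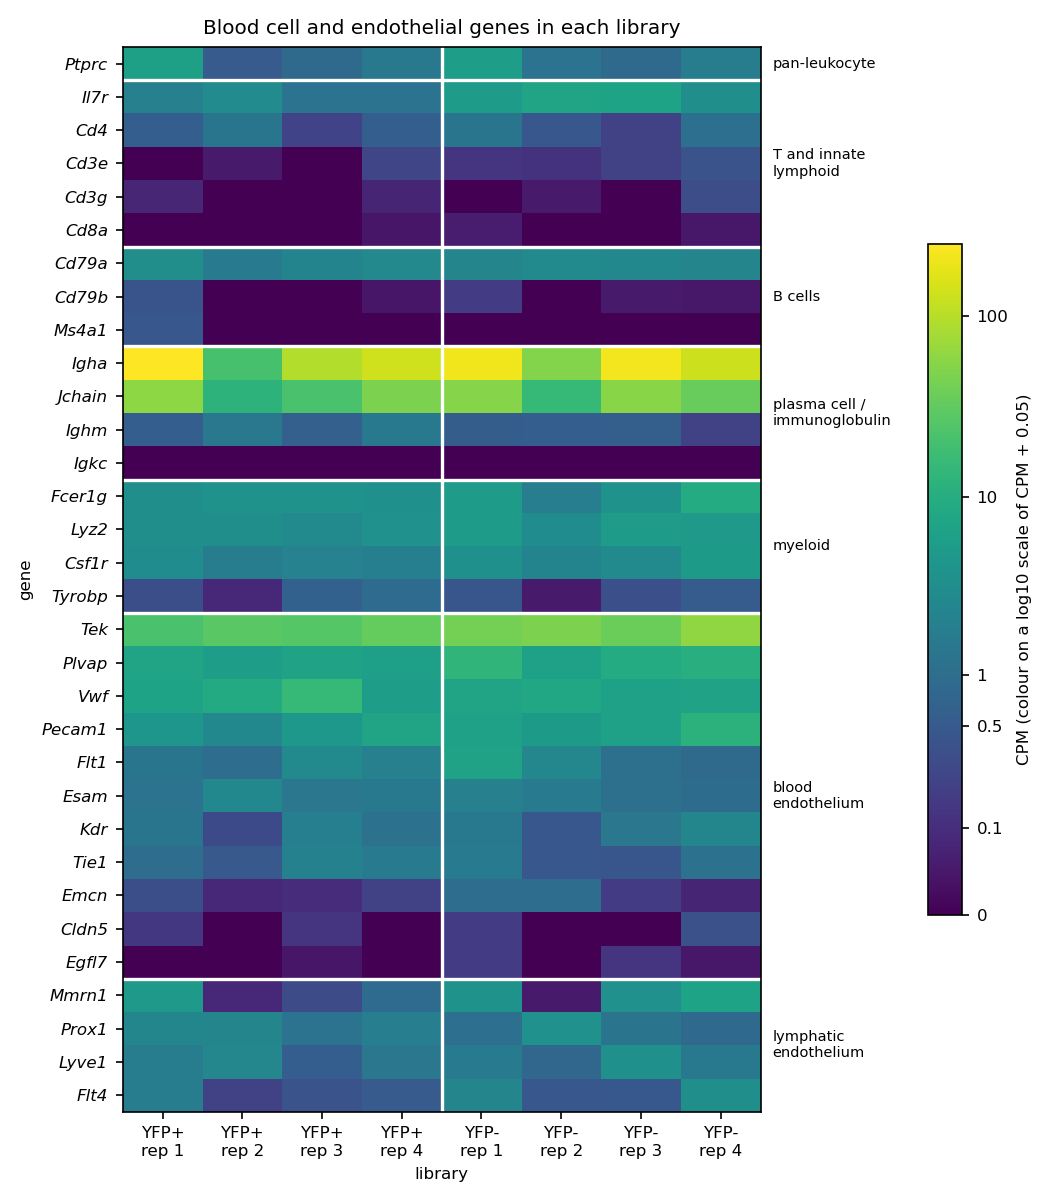
Level of each of the 32 genes (rows, grouped by cell class) in each library (columns, YFP+ on the left, YFP- on the right), as CPM on a log colour scale. Igha and Jchain are the brightest rows, Igkc is at 0 in all 8 libraries, and Tek is brighter in each YFP- library than in each YFP+ library.

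By edgeR's quasi-likelihood test with Benjamini-Hochberg adjustment over all 16354 genes tested, 2 of the 23 tested genes, Tek and Il7r, were lower in YFP+ libraries and none was higher. Over all genes tested, 4.26% were called, with 3.34% lower and 0.917% higher. Without the filter on low counts 4.04% of genes were called, and the same pair of the 32. At an unadjusted p under 0.05, 4 of the 23 passed, all with lower YFP+ estimates (Il7r, Tek, Plvap and Pecam1), where 15.1% of all genes tested passed, 9.53% lower and 5.59% higher. When the replicate number entered the fit as a block, the test called 4 of the 32 lower (Tek, Il7r, Pecam1 and Plvap) and none higher, where 11.5% of all genes tested were called, 7.85% lower and 3.65% higher. The log2 fold change estimate (YFP+ over YFP-) was negative in 17 of the 23, with a median of -0.26, against a median of 0.0032 over all genes tested, 49.4% of which had a negative estimate. Tek and Il7r were also the only genes among the 32 whose libraries did not overlap between the groups in either direction, where 5.85% of tested genes were lower without overlap and 3.79% were higher without overlap. The authors' deposited table, read at the same threshold, called Il7r, Tek, Pecam1 and Mmrn1 lower in YFP+ cells, and none of the 32 higher, where it called 9.36% of its genes, 6.59% lower and 2.76% higher.

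**Figure D2:**
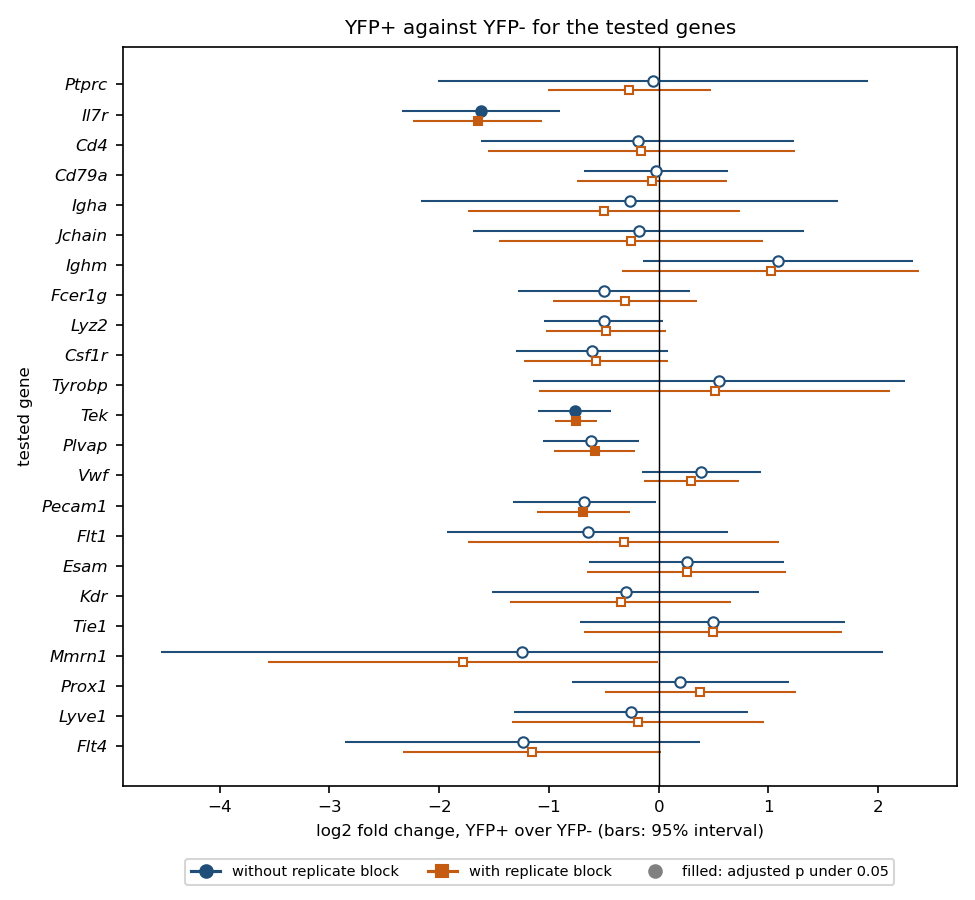
Log2 fold change of YFP+ over YFP- with its 95% interval for the 23 genes tested, from edgeR without the replicate block (circles) and with it (squares), with filled symbols where the adjusted p was under 0.05. Il7r and Tek are filled in both fits, Pecam1 and Plvap only with the block, and most other intervals span 0.

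Among plasma cell genes, Igha, which encodes the constant part of the IgA heavy chain, was the most abundant of the 32 both in CPM and per length, at a mean of 51.6 CPM per kb of exon over the 8 libraries. Its level was 249, 21.1, 94.2 and 136 CPM in YFP+ replicates 1 to 4 and 210, 51.6, 211 and 129 CPM in YFP- replicates 1 to 4. The groups overlapped, the libraries numbered 2 were the lowest of both groups, and the replicates of a single group spread by more than the groups differed. The estimate was -0.26 (SE 0.78), with an adjusted p of 0.926 by edgeR's quasi-likelihood test, and its 95% interval ran from -2.16 to 1.63. With the replicate block the estimate was -0.50 (SE 0.40, adjusted p = 0.584 by edgeR).

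Jchain, whose product joins IgA and IgM into polymers, followed the same pattern across libraries. It had 58.8, 12.2, 21.7 and 46.2 CPM in YFP+ replicates 1 to 4, against 53.1, 14.9, 55.5 and 34.1 CPM in YFP- replicates 1 to 4. Again the libraries numbered 2 were the lowest of both groups and the groups overlapped (estimate -0.18, SE 0.62, adjusted p = 0.936 by edgeR). With the replicate block the estimate was -0.25 (SE 0.39, adjusted p = 0.793 by edgeR). Igha was the second of the 14241 compared genes most like Jchain over the 8 libraries, with a Pearson r of 0.96 of log2 CPM. The others of the nearest 10 were Gng7, Usp2, Fbxo33, Fam49a, Actr3b, Cbl, Fancf, Gm4969 and Gm45053, with r from 0.94 to 0.96. With 8 libraries that share their pairing, these correlations are a description.

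Ighm, the heavy chain of IgM, was far lower than Igha, at 0.411 CPM per kb against 51.6 CPM per kb. It had 0.595, 1.48, 0.622 and 1.52 CPM in YFP+ replicates 1 to 4, and 0.574, 0.585, 0.604 and 0.217 CPM in YFP- replicates 1 to 4, that is, 16 to 44 counts in YFP+ libraries and 6 to 14 counts in YFP- libraries. The estimate was 1.09 (SE 0.58) with an adjusted p of 0.407 by edgeR. YFP+ replicate 1 lay below YFP- replicate 3, so the groups overlapped.

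Igkc, the constant gene of the kappa light chain that most mouse antibodies use, was listed at 0 in all 8 libraries (chr6:70726435-70726966, plus strand, GRCm38). Kappa variable genes (Igkv) nevertheless summed to 2278, 233, 941 and 1561 counts in YFP+ replicates 1 to 4 and to 2052, 221, 1892 and 1065 counts in YFP- replicates 1 to 4. Per count of Igha, the Igkv genes gave 0.327 to 0.452 counts in YFP+ libraries and 0.179 to 0.432 counts in YFP- libraries. The 5 kappa joining genes and the 20 heavy chain diversity genes in the table were also at 0 throughout. The long noncoding gene Gm30211 spans Igkc in the annotation but shares 0 exonic bases with it, and had 0 to 60 counts in YFP+ libraries and 16 to 79 counts in YFP- libraries. Whether the 0 came from the RNA or from how reads were assigned was not tested.

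Lambda light chain RNA was present beside it. The lambda variable and constant genes together gave 0.0171, 0.0472, 0.476 and 0.0256 counts per Igkv count in YFP+ replicates 1 to 4, against 0.0224, 0.113, 0.126 and 0.00845 in YFP- replicates 1 to 4. The libraries numbered 3 were the highest of both groups. A further sum took in the variable genes, the heavy and kappa joining genes, the diversity genes and the constant genes Igha, Ighm, Ighg, Igkc and Iglc. With Jchain they took 0.00566% to 0.0491% of counts in YFP+ libraries and 0.00878% to 0.0411% in YFP- libraries. Igkc adds 0 to this share, and other immunoglobulin genes were not summed.

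**Figure D3:**
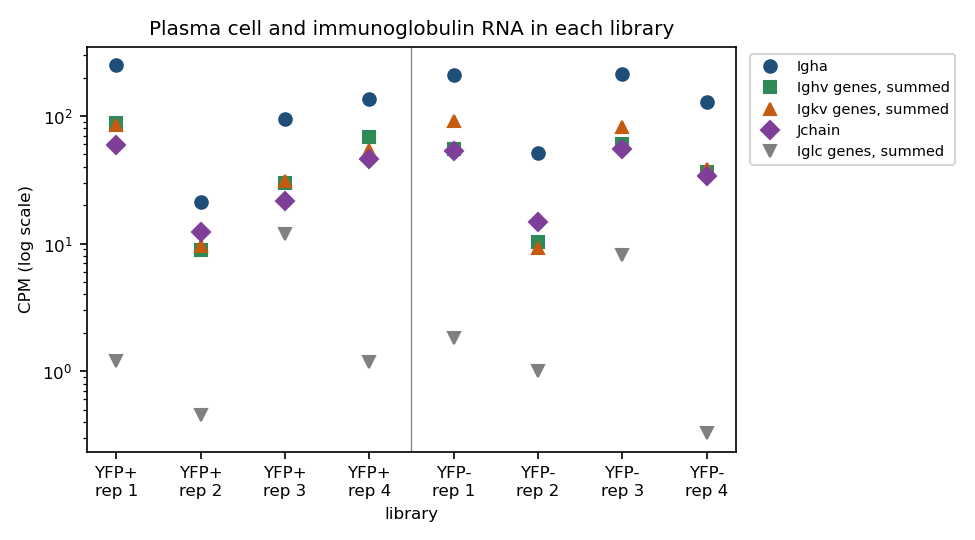
CPM on a log axis of Igha, Jchain and the summed heavy variable (Ighv), kappa variable (Igkv) and lambda constant (Iglc) genes in each library, YFP+ on the left and YFP- on the right. Igha, Ighv, Igkv and Jchain move together and are lowest in the libraries numbered 2 of both groups, while Iglc peaks in the libraries numbered 3.

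Each B cell clone joins a single heavy and a single light variable gene, so variable genes can differ between clones where constant genes do not. The same variable gene in different libraries need not mean the same clone. Of 343 Ighv and Igkv genes, 131 had a read in at least 1 library and 54 had at least 50 counts in all. Of these 54, 27 had at least 90% of their summed CPM in 1 library. No variable gene reached 10 counts in all 8 libraries, and 3 did in 7 (Igkv1-110, Igkv1-117 and Ighv1-81).

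Ighv1-81 led the Ighv genes in 4 of the 8 libraries, among them both libraries numbered 1, with 30.8% of Ighv counts in YFP+ replicate 1 and 28.3% in YFP- replicate 1. In the pairs numbered 2, 3 and 4 the leading Ighv gene differed between the YFP+ and the YFP- library, and the leading Igkv gene differed in all 4 pairs. In YFP+ replicate 2, Ighv1-81 held 154 of 216 Ighv counts (71.3%, 95% exact Clopper-Pearson interval 64.8% to 77.2%), whereas in YFP- replicate 2, Ighv1-26 held 213 of 246 (86.6%, interval 81.7% to 90.6%). In the same libraries Igkv1-110 held 106 of 233 Igkv counts (45.5%, interval 39.0% to 52.1%) in YFP+ replicate 2, and Igkv5-48 held 173 of 221 (78.3%, interval 72.3% to 83.5%) in YFP- replicate 2. These intervals cover counting error only, since reads without molecular identifiers are not independent molecules. To reach 50% of Ighv counts, 3, 1, 3 and 4 genes were needed in YFP+ replicates 1 to 4, and 3, 1, 2 and 2 in YFP- replicates 1 to 4. For Igkv counts the numbers were 2, 2, 3 and 4 in YFP+ replicates 1 to 4, and 3, 1, 3 and 2 in YFP- replicates 1 to 4. Ighv11-2 had 374 counts in YFP+ replicate 4 and 0 in each of the others.

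Over the 343 genes, the correlation of variable gene usage between a YFP+ and a YFP- library of the same number was 0.53, 0.027, 0.16 and 0.31 for numbers 1 to 4. Between libraries of different number, the 12 correlations ran from 0.025 to 0.73 with a median of 0.37. Equal numbers thus did not show more alike variable gene usage than unequal ones, with a median of 0.24 over the 4. These are correlations across genes, which are not independent, and are given with no test.

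**Figure D4:**
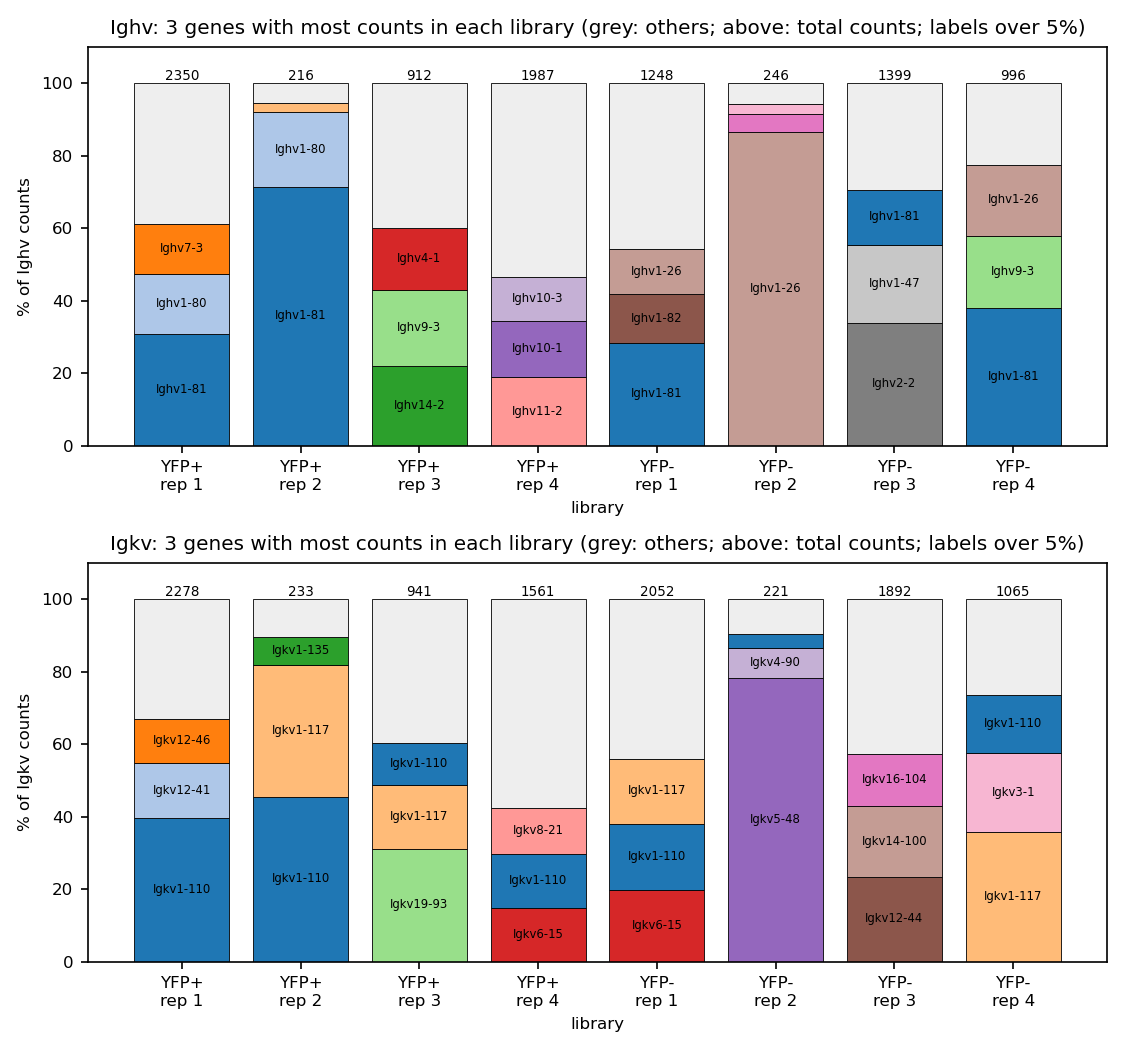
Share of Ighv counts (top) and Igkv counts (bottom) taken by the 3 leading genes of each library, in percent, with all other genes in grey and the total count above each bar. Segments over 5% carry the gene's name, and colours are set within a panel. YFP+ replicate 2 is led by Ighv1-81 and Igkv1-110, and YFP- replicate 2 by Ighv1-26 and Igkv5-48.

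Some of these variable genes are near copies, so a read can fit more than 1 of them and their separate counts are uncertain. The first 240 bases of the variable exon are printed for the 3 genes found in 7 libraries, and for Ighv1-80 to set beside Ighv1-81, from the GENCODE release M21 transcripts on GRCm38, 5′ to 3′ along the gene, with capitals at the bases that differ within a pair. Igkv1-110 lies at chr6:68270955-68271194 on the plus strand and Igkv1-117 at chr6:68121515-68121754 on the plus strand. Ighv1-81 lies at chr12:115920344-115920583 on the minus strand and Ighv1-80 at chr12:115912409-115912648 on the minus strand.
Igkv1-110: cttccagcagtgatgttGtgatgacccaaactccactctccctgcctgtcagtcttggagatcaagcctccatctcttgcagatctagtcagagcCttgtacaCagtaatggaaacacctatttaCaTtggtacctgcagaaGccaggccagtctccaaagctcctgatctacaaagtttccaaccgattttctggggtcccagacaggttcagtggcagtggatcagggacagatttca
Igkv1-117: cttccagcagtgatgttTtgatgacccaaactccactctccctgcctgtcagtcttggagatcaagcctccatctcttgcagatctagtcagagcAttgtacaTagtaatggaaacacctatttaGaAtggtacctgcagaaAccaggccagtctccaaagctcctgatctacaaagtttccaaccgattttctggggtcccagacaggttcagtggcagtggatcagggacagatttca
Ighv1-81: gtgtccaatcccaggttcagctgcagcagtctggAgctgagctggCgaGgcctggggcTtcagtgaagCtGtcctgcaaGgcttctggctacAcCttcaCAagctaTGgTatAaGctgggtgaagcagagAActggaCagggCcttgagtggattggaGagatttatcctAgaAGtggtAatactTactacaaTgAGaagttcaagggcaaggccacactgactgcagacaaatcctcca
Ighv1-80: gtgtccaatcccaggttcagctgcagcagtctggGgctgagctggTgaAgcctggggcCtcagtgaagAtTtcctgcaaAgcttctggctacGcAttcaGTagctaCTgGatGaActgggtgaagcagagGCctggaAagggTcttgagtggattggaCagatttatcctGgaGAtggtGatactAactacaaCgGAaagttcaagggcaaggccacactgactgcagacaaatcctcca
The kappa pair differed at 6 of the 240 bases (97.5% identical) and shared an unbroken run of 97 bases, while the heavy chain pair differed at 29 bases (87.9% identical) and its longest shared run was 43 bases. Both kappa genes had reads in each library. Igkv1-110 had 905, 106, 109 and 231 counts in YFP+ replicates 1 to 4, against 374, 9, 189 and 172 counts in YFP- replicates 1 to 4. Igkv1-117 had 262, 85, 167 and 185 counts in YFP+ replicates 1 to 4, against 371, 3, 110 and 380 counts in YFP- replicates 1 to 4. Their ratio was not constant, with Igkv1-110 ahead in 6 libraries and Igkv1-117 ahead in YFP+ replicate 3 and YFP- replicate 4. Ighv1-81 had 723, 154, 89 and 178 counts in YFP+ replicates 1 to 4, against 353, 6, 210 and 379 counts in YFP- replicates 1 to 4. Ighv1-80 had 389, 45, 0 and 119 counts in YFP+ replicates 1 to 4, against 0, 0, 1 and 0 counts in YFP- replicates 1 to 4. Reads of Ighv1-80 were thus found in 3 YFP+ libraries and, apart from a single read, in no YFP- library. Ighv1-26 leaned the other way, apart from YFP+ replicate 3. It had 5, 0, 135 and 4 counts in YFP+ replicates 1 to 4. In YFP- replicates 1 to 4 the counts were 157, 213, 58 and 195. Both are single genes of 343, and 27 of the 54 with at least 50 counts were mostly in 1 library. No difference between the groups was tested for them.

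Ptprc, the gene of CD45 itself and the target of the gate, had 6.21, 0.534, 0.884 and 1.52 CPM in YFP+ replicates 1 to 4, against 5.65, 1.21, 0.905 and 1.74 CPM in YFP- replicates 1 to 4. The libraries numbered 1 stood highest in both groups, with 167 counts in the YFP+ library and 128 counts in the YFP- library, against 13 to 48 counts in the other 6. The groups overlapped, with an estimate of -0.05 (SE 0.86, adjusted p = 0.989 by edgeR). Its sign turned in 4 of the 8 fits without the block that left out a library. With the replicate block the estimate was -0.27 (SE 0.36, adjusted p = 0.724 by edgeR). Of 9 further pan-leukocyte genes, the most abundant of which were Lcp1 and Arhgdib, 6 were tested and none was called by edgeR with or without the block or by DESeq2, nor passed at an unadjusted p under 0.05. Their sum was 4.80 to 11.8 CPM in YFP+ libraries and 5.39 to 19.6 CPM in YFP- libraries.

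Il7r, the alpha subunit of the interleukin 7 receptor of T cells and innate lymphoid cells, was the lymphoid gene that separated the groups. It had 1.97, 3.04, 1.24 and 1.25 CPM in YFP+ replicates 1 to 4, against 5.52, 7.27, 6.81 and 3.405 CPM in YFP- replicates 1 to 4. Each YFP+ library lay below each YFP- library, and below its same-numbered partner in all 4 pairs. The means were 1.88 ± 0.85 CPM in YFP+ libraries and 5.75 ± 1.73 CPM in YFP- libraries (SD, n = 4 each). This was a log2 fold change of -1.62 (SE 0.34, adjusted p = 0.01 by edgeR), and -1.65 with an adjusted p of 0.000167 by edgeR with the block. Il7r lies at chr15:9505788-9530176 on the minus strand and no other annotated gene shares its exons.

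The other lymphoid genes were at the edge of detection. Cd4, a co-receptor of helper T cells that some myeloid cells also carry, had 0.595, 1.31, 0.229 and 0.588 CPM in YFP+ replicates 1 to 4, against 1.32, 0.460, 0.216 and 1.09 CPM in YFP- replicates 1 to 4, and the groups overlapped (estimate -0.19, SE 0.67, adjusted p = 0.936 by edgeR). Cd3e, a signalling chain of the T cell receptor complex, had 0 to 7 counts in YFP+ libraries and 3 to 11 counts in YFP- libraries, and shares 135 exonic bases with Gm48719 on the opposite strand. Cd3g, another chain of that complex, had 0 to 2 counts in YFP+ libraries and 0 to 9 counts in YFP- libraries. Cd8a, the co-receptor of cytotoxic T cells, had at most 1 count in any library. Cd3e, Cd3g and Cd8a were not tested. Without Il7r, the other 4 lymphoid genes summed to 0.229 to 1.36 CPM in YFP+ libraries and 0.431 to 1.85 CPM in YFP- libraries. Of 16 further T and innate lymphoid genes, 4 were tested and none passed by any of these tests, unadjusted p included. The most abundant, Cd28 and Cd247, reached 1.34 to 2.15 CPM and 1.19 to 1.52 CPM in YFP+ libraries, against 1.42 to 3.05 CPM and 1.501 to 2.68 CPM in YFP- libraries.

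Of the B cell genes, Cd79a, a signalling chain of the B cell receptor that plasma cells may retain, had 3.35, 1.68, 2.29 and 2.6997 CPM in YFP+ replicates 1 to 4, against 2.38, 2.84, 2.63 and 2.35 CPM in YFP- replicates 1 to 4. The groups overlapped (estimate -0.03, SE 0.31, adjusted p = 0.986 by edgeR), and the 95% interval of the estimate ran from -0.68 to 0.63. Its partner Cd79b, at 0.409, 0, 0 and 0.0346 CPM in YFP+ replicates 1 to 4 and 0.177, 0, 0.0431 and 0.0362 CPM in YFP- replicates 1 to 4, did not follow it. Ms4a1, the gene of CD20 on mature B cells, had 12 counts in YFP+ replicate 1 and 0 in the other 7 libraries. YFP+ replicate 1 was thus the highest of the 8 for Cd79b and the only library with Ms4a1 reads. Cd79b and Ms4a1 were not tested, and of 8 further B cell genes, 3 were tested and none passed by edgeR with or without the block, by DESeq2 or at an unadjusted p under 0.05. The same held for 5 tested genes of a further list of 11 plasma cell genes, whose sum was 5.83 to 19.7 CPM in YFP+ libraries and 9.03 to 17.9 CPM in YFP- libraries.

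None of the 4 myeloid genes was called by edgeR or DESeq2, or passed at an unadjusted p under 0.05. Fcer1g, the common gamma chain of Fc receptors, had 3.46, 3.82, 3.76 and 3.53 CPM in YFP+ replicates 1 to 4, against 5.34, 1.88, 3.88 and 9.45 CPM in YFP- replicates 1 to 4. The YFP+ libraries lay close together inside the range of the YFP- libraries (estimate -0.50, SE 0.37, adjusted p = 0.581 by edgeR). Lyz2, the lysozyme of macrophages and neutrophils, had 3.46, 3.45, 2.75 and 3.63 CPM in YFP+ replicates 1 to 4, against 5.47, 3.09, 5.39 and 4.85 CPM in YFP- replicates 1 to 4. Apart from YFP- replicate 2, each YFP- library lay above each YFP+ library (estimate -0.50, SE 0.26, adjusted p = 0.381 by edgeR).

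Csf1r, the receptor for colony stimulating factor 1 on macrophages, had 1.81 to 3.13 CPM in YFP+ libraries and 2.30 to 5.14 CPM in YFP- libraries (estimate -0.61, SE 0.33, adjusted p = 0.414 by edgeR), and 873 of its exonic bases overlap Hmgxb3 on the opposite strand. Tyrobp, an adaptor of myeloid and natural killer receptors, had 0.0821 to 0.934 CPM in YFP+ libraries and 0.0418 to 0.543 CPM in YFP- libraries (estimate 0.55, SE 0.80, adjusted p = 0.815 by edgeR). The 4 myeloid genes summed to 10.4, 9.16, 9.29 and 10.04 CPM in YFP+ libraries, against 14.7, 7.32, 12.4 and 19.99 CPM in YFP- libraries. Of 14 further myeloid and mast cell genes, 8 were tested, none was called by edgeR with or without the block or by DESeq2, and 1 (Kit) had an unadjusted p under 0.05. Most of that list's sum, 39.4 to 57.5 CPM in YFP+ libraries and 46.4 to 64.6 CPM in YFP- libraries, was Cx3cr1, the fractalkine receptor, at 27.1 to 42.9 CPM in YFP+ libraries and 32.0 to 46.9 CPM in YFP- libraries.

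Tek, the angiopoietin receptor TIE2, was the most abundant endothelial gene of the list and the only 1 of its class called without the block. It had 21.8, 28.2, 26.0 and 33.0 CPM in YFP+ replicates 1 to 4, against 41.3, 45.9, 37.2 and 61.0 CPM in YFP- replicates 1 to 4. Each YFP+ library lay below each YFP- library, and below its partner in all 4 pairs, where the log2 ratio of the pair ran from -0.92 to -0.51. The means were 27.3 ± 4.65 CPM in YFP+ libraries and 46.3 ± 10.4 CPM in YFP- libraries (SD, n = 4 each). The log2 fold change was -0.77 (SE 0.16, adjusted p = 0.0112 by edgeR). Without YFP+ replicate 3 the estimate was -0.74 and its adjusted p was 0.0525 by edgeR's test, so the call was lost. With the replicate block it was -0.76 with an adjusted p of 1.74e-06 by edgeR. Tek lies at chr4:94739289-94874976 on the plus strand, and no other annotated gene shares its exons.

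The level of Tek per length was well above that of the other endothelial receptors on the list. Per kb of exon, Tek averaged 7.81 CPM over the 8 libraries, against 0.223 CPM for Tie1, its orphan co-receptor, 0.145 CPM for Kdr and 0.171 CPM for Flt1, both receptors of VEGF-A. Tie1, Kdr and Flt1 overlapped between the groups, with estimates of 0.49 (SE 0.57), -0.30 (SE 0.57) and -0.65 (SE 0.59), and adjusted p of 0.752, 0.865 and 0.674 by edgeR. Flt1 had 1.30, 0.985, 2.85 and 2.01 CPM in YFP+ replicates 1 to 4, against 6.71, 2.55, 1.12 and 0.906 CPM in YFP- replicates 1 to 4. It was lower in the YFP+ library in pairs 1 and 2 and higher in pairs 3 and 4.

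Pecam1, the gene of CD31 and the target of the endothelial gate, had 4.32, 2.63, 4.61 and 7.06 CPM in YFP+ replicates 1 to 4, against 6.58, 5.10, 6.38 and 11.7 CPM in YFP- replicates 1 to 4. The groups overlapped, but the YFP+ library was the lower in all 4 pairs, with log2 ratios from -0.93 to -0.46. The log2 fold change was -0.68 (SE 0.31, adjusted p = 0.309 by edgeR), and with the replicate block -0.69 with an adjusted p of 0.0267 by edgeR. Without any 1 pair, the log2 fold change with the block was -0.76 to -0.60, about as large with fewer libraries, and the adjusted p was 0.0562 to 0.136 by edgeR. The genes most like Pecam1 over the 8 libraries were Nampt and Stat3 (Pearson r of 0.97 each), then Arf4os, Mga, Btg1, Slc8a2, Musk, Gm26885, Uap1l1 and Etf1 with r from 0.96 to 0.97.

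Plvap, a protein of the diaphragms of fenestrated capillaries, had 7.11, 5.95, 6.61 and 6.13 CPM in YFP+ replicates 1 to 4, against 13.2, 6.52, 9.44 and 10.4 CPM in YFP- replicates 1 to 4. YFP- replicate 2 was the only YFP- library inside the YFP+ range, and the YFP+ library was the lower in all 4 pairs. The log2 fold change was -0.62 (SE 0.21, adjusted p = 0.12 by edgeR), and with the replicate block -0.58 with an adjusted p of 0.0314 by edgeR. Without YFP- replicate 2 the adjusted p was 0.0306 by edgeR's test without a block. With the block, the call held when pair 2 was left out (adjusted p = 0.0118 by edgeR) and was lost without pair 1, 3 or 4 (0.217, 0.105 and 0.146).

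**Figure D5:**
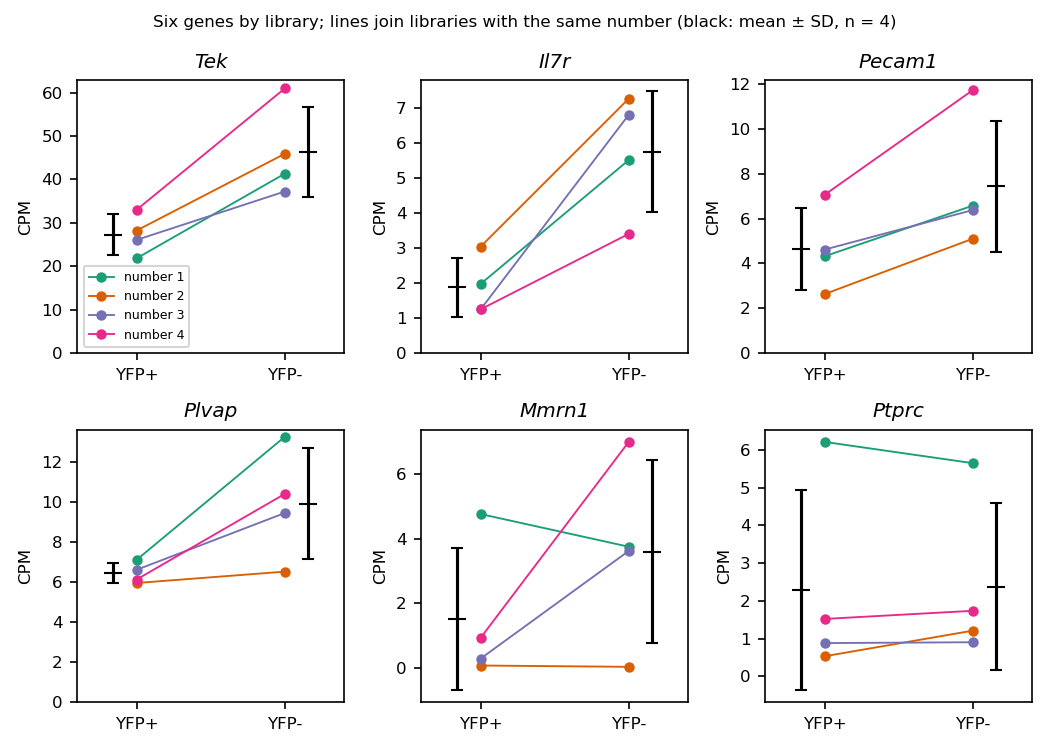
CPM in each library for Tek, Il7r, Pecam1, Plvap, Mmrn1 and Ptprc, with YFP+ left of YFP- and lines joining libraries of the same number (black: mean ± SD, n = 4). All 4 lines run upwards from YFP+ to YFP- for Tek, Il7r, Pecam1 and Plvap, while the libraries numbered 1 stand apart for Ptprc and those numbered 2 are near 0 for Mmrn1.

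Vwf, the clotting factor stored by endothelium and platelets, had 6.99, 9.20, 15.1 and 5.64 CPM in YFP+ replicates 1 to 4, against 7.195, 7.86, 6.38 and 6.74 CPM in YFP- replicates 1 to 4. Its highest value was in YFP+ replicate 3 and the groups overlapped (estimate 0.39, SE 0.25, adjusted p = 0.522 by edgeR). Esam, an adhesion molecule of endothelial junctions, had 1.23 to 2.63 CPM in YFP+ libraries and 0.978 to 1.99 CPM in YFP- libraries, with an estimate of 0.26 (SE 0.42, adjusted p = 0.837 by edgeR). Emcn, a sialoglycoprotein of capillaries and veins, Cldn5, the claudin of endothelial tight junctions, and Egfl7, a secreted endothelial protein, did not pass the filter. Emcn had 0.0821 to 0.335 CPM in YFP+ libraries and 0.0724 to 1.02 CPM in YFP- libraries. Cldn5 had 0 to 0.149 CPM in YFP+ libraries and 0 to 0.362 CPM in YFP- libraries. Egfl7 was at 0 in 3 YFP+ libraries and in 1 YFP- library and shares 459 exonic bases with other annotated genes. Without Tek, the other 10 blood endothelial genes summed to 23.8, 22.3, 34.8 and 25.3 CPM in YFP+ libraries, against 40.2, 25.5, 26.6 and 34.8 CPM in YFP- libraries, and the groups overlapped.

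In a further list of 21 blood endothelial genes, 15 were tested. The estimate was negative in 8 of the 15, with a median log2 fold change of -0.049, so the estimates did not share a direction. The sum of the 21 genes, most of it Eng and Ramp2, was nevertheless higher in each YFP+ library than in each YFP- library. Those called were higher in YFP+ libraries. By edgeR, 2 were higher and none was lower, and with the block 5 were higher (Aplnr, Fli1, Ramp2, Eng and Ecscr) and none lower. At an unadjusted p under 0.05, 5 of the 15 were higher and none lower, where 5.59% of all genes tested were higher and 9.53% lower. Aplnr, the apelin receptor, averaged 35.0 ± 8.86 CPM in YFP+ libraries and 18.8 ± 3.26 CPM in YFP- libraries (SD, n = 4 each). Its log2 fold change was 0.90, with an adjusted p of 0.0122 by edgeR. Fli1, a transcription factor of endothelium and blood, averaged 36.4 ± 1.92 CPM in YFP+ libraries and 27.9 ± 3.03 CPM in YFP- libraries (SD, n = 4 each), with a log2 fold change of 0.39 and an adjusted p of 0.0467 by edgeR. Cdh5, the cadherin that defines endothelium, was at 1.49, 0.0821, 1.31 and 1.56 CPM in YFP+ replicates 1 to 4, against 2.52, 0.460, 0.949 and 1.63 CPM in YFP- replicates 1 to 4, and was not called. Erg, an endothelial transcription factor, was at 11.4 to 18.3 CPM in YFP+ libraries and 11.5 to 24.8 CPM in YFP- libraries, and was not called.

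None of the 4 lymphatic endothelial genes was called by edgeR or DESeq2 or passed at an unadjusted p under 0.05. Mmrn1, a multimerin of lymphatic endothelium and platelets, had 4.76, 0.0821, 0.295 and 0.934 CPM in YFP+ replicates 1 to 4, against 3.75, 0.0418, 3.62 and 6.99 CPM in YFP- replicates 1 to 4. In the pair numbered 2 it had 2 counts in the YFP+ library and 1 in the YFP- library, while the pair numbered 1 had 128 counts in the YFP+ library and 85 in the YFP- library. The estimate was -1.25 (SE 1.37, adjusted p = 0.75 by edgeR), and its 95% interval from -4.54 to 2.04 spans both directions. With the replicate block it was -1.78 (SE 0.77) with an adjusted p of 0.217 by edgeR, so Mmrn1 was not called. The log2 ratio was 0.34 and 0.36 in pairs 1 and 2, and -3.24 and -2.78 in pairs 3 and 4. With the block and without pair 1, a fit added after seeing the data, the estimate was -2.82 with an adjusted p of 0.00277 by edgeR. Pair 1 has a ratio above 0, so leaving it out by itself lowers the estimate. The fits without another pair are not given here for Mmrn1. The authors' deposited table gives Mmrn1 a log2 fold change of -1.72 and an adjusted p of 0.045.

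Prox1, the transcription factor that specifies lymphatic endothelium, had 2.42, 2.38, 1.24 and 1.83 CPM in YFP+ replicates 1 to 4, against 1.06, 3.64, 1.29 and 0.869 CPM in YFP- replicates 1 to 4. The groups overlapped (estimate 0.20, SE 0.47, adjusted p = 0.898 by edgeR), and 133 of its exonic bases overlap Prox1os on the opposite strand. Lyve1, a hyaluronan receptor of lymphatic endothelium and some macrophages, had 1.71, 2.50, 0.589 and 1.42 CPM in YFP+ replicates 1 to 4, against 1.59, 0.794, 3.49 and 1.52 CPM in YFP- replicates 1 to 4 (estimate -0.25, SE 0.50, adjusted p = 0.873 by edgeR). Flt4, the lymphatic receptor of VEGF-C, had 1.71, 0.205, 0.393 and 0.519 CPM in YFP+ replicates 1 to 4, against 2.38, 0.460, 0.474 and 3.37 CPM in YFP- replicates 1 to 4. It was lower in the YFP+ library in all 4 pairs but overlapped between the groups (estimate -1.24, SE 0.75, adjusted p = 0.487 by edgeR). Among YFP+ libraries, Mmrn1, Flt4 and Prox1 were highest in replicate 1 and Lyve1 in replicate 2. Among YFP- libraries, Mmrn1 and Flt4 were highest in replicate 4, Prox1 in replicate 2 and Lyve1 in replicate 3. Of 8 further lymphatic genes, 5 were tested, and the most abundant, Pdpn and Nrp2, were not called with or without the block. Sema3d, a semaphorin, was lower in YFP+ libraries with the block (log2 fold change -0.80) and by DESeq2, and had an adjusted p of 0.0653 by edgeR without it.

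Some markers of other cell types were also called by edgeR without the block. In that fit 3.34% of all genes tested were lower in YFP+ libraries and 0.917% were higher. Of 8 enteric glial markers, 7 were lower in YFP+ libraries, and their sum was 7.11 to 9.80 CPM in YFP+ libraries and 106 to 172 CPM in YFP- libraries. Of 9 epithelial markers, 4 were lower in YFP+ libraries, with sums of 19.7 to 27.9 CPM in YFP+ libraries and 40.9 to 85.1 CPM in YFP- libraries. Of 8 mural cell markers, 2 were lower (Mcam and Steap4) and 1 was higher (Cspg4). The mural sums overlapped, at 1270 to 1474 CPM in YFP+ libraries and 1127 to 1305 CPM in YFP- libraries. Of the 8 stromal markers, 2 were lower without the block (Dcn and Lum) and none was higher. With the block, 5 stromal markers were lower and 1 was higher, where 7.85% of all genes tested were lower and 3.65% higher. The called markers moved in the same samples as Tek and Il7r, and their part in those results was not tested. The further T and innate lymphoid list summed to 4.91 to 7.35 CPM in YFP+ libraries and 5.48 to 9.24 CPM in YFP- libraries. The further blood endothelial list summed to 283 to 346 CPM in YFP+ libraries and 229 to 271 CPM in YFP- libraries. Those sums did not overlap and were mostly Eng and Ramp2. Of 8 erythroid and platelet genes, 3 were tested and none passed by edgeR, DESeq2 or at an unadjusted p under 0.05, and the list's sum was 0.934 to 14.3 CPM in YFP+ libraries and 0.942 to 7.44 CPM in YFP- libraries.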

How the data were processed

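RNA was measured in 4 YFP+ and 4 YFP- libraries. Per the labels' protocols, the kit was a stranded one for total RNA at very low input. The genome build was GRCm38 (mm10) and the tools named are STAR 2.7.3a, featureCounts 2.0.1, cutadapt 3.4 and DESeq2, per the submitters' processing notes. Strand and multi-mapping settings, the annotation and the version of DESeq2 are not given in the sources used, so overlapping, antisense and multicopy genes are uncertain. Raw gene counts are given for each library in the table the authors deposited. The authors' log2 fold changes and adjusted p-values stand beside them, and the normalised columns were not used.

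The 32 genes and all gene lists were chosen with earlier results of these data known. The deposited counts were fitted with edgeR 4.0.16 (R 4.3.3). Its filterByExpr left 16354 of 53801 genes (23010 had no count), with TMM scaling, robust quasi-likelihood F tests and Benjamini-Hochberg adjustment at 0.05 over all genes tested. The SE is the absolute estimate divided by the square root of F, and intervals use the test's degrees of freedom. Library totals are in the report, and the library pairs all differed by more than sampling noise. The test was tried on simulated data. Likeness to Jchain and Pecam1 used log2(CPM + 0.5) and genes averaging 1 CPM or more. Pair ratios used log2 with 0.1 CPM added. Exon lengths, overlaps and variable exons came from GENCODE release M21, which held 53620 of the 53801 identifiers and all 32 genes.

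Values in every library are given for the 2 most abundant genes of each class and for genes called with or without the block, and other values are given for context. Of some further lists, the most abundant or called genes are named, and of the others only counts of genes or sums are given. Cdh5 and some other values were added after they were seen.

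Whether equal replicate numbers pair the libraries was checked. Over 5200 genes, deviations from the group means correlated at 0.60, 0.64, 0.38 and 0.57 for libraries of the same number, and at -0.42 to 0.05 for different numbers. Deviations sum to 0 within a group, so positive correlations at the same number push the others below 0. Those negative values are therefore no separate support for pairing. On the ground of the same-number correlations, equal numbers were read as pairs in the pair ratios and the block fits. No label says what they share. The main fit, which gave all estimates printed without mention of the block, did not use the pairing.

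Alternatives were other scalings, 1 CPM in 4 libraries as the filter, no filter, DESeq2 1.42.0, limma-voom (limma 3.58.1), the replicate block and leaving out each library. The block without both libraries of a number was added after seeing the data.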

Additional observations from a re-analysis of the deposited data

Results flagged for a closer look

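Among 62 sets of 4 libraries examined, 2 held a library that stood apart by Dixon's test at 95%, where chance would give about 3.1. Ighm in YFP- replicate 4 was low, at 0.217 CPM, against 0.574 to 0.604 CPM in the other YFP- libraries. Prox1 in YFP- replicate 2 was high, at 3.64 CPM, against 0.869 to 1.29 CPM in the other YFP- libraries. No explanation of either was tested.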

How the results depend on the processing

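Tek and Il7r stayed called under upper-quartile and relative log expression scaling, the 1 CPM filter and no filter, DESeq2, limma-voom and the replicate block. The number of the 32 genes called was 2 under these and 4 with the block. Leaving out 1 library at a time gave 1 to 3, with Tek lost without YFP+ replicate 3 and Plvap gained without YFP- replicate 2. Tek and Il7r were called in each of the 4 fits with the block and without 1 pair. Over all genes, 697 were called, against 1243 without a filter, 1100 by DESeq2, 1880 with the replicate block, and 1581, 1550, 1182 and 1448 with the block and without the libraries numbered 1, 2, 3 and 4. Leaving out 1 library gave 427 to 672. The cause of these moves was not tested. The block changed no other call among the 32 genes.

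Leaving out 1 library, in fits without the block that kept its same-numbered partner, turned the sign of 10 uncalled genes. Their log2 fold changes then ran from -1.26 to 0.83 for Ptprc, -0.71 to 0.20 for Cd4, -0.19 to 0.12 for Cd79a, -0.56 to 0.10 for Jchain, -0.84 to 0.0898 for Igha, -0.65 to 0.0776 for Kdr, -0.97 to 0.24 for Flt1, -0.0279 to 0.47 for Esam, -0.57 to 0.26 for Lyve1 and -0.0175 to 0.88 for Prox1. The summed CPM of each class moved by less than 1 SD under each setting run. Depth limits Cd3e, Cd3g, Cd8a, Cd79b, Ms4a1, Cldn5 and Egfl7, where most libraries had few reads or none, and a difference was not detectable.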
